A study of Homo sapiens with 6 samples.

Results

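The genes examined here encode the machinery that carries a signal from G protein-coupled receptors into the cell. They were taken by gene name from the deposited table as all RGS, G protein alpha, beta and gamma subunit, GRK, beta-arrestin and adenylyl cyclase genes, which gave 74 of 19937 genes. The series concerns GPR91, the succinate receptor encoded by SUCNR1, which is itself such a receptor, in SK-N-BE(2), a neuroblastoma line. RNA was sequenced from 3 libraries titled sgcon and 3 titled sgGPR91. All 6 were labelled as exposed to the drug doxorubicin for 48 hours, so drug-free cells were not analysed here. The treatment label gives 100 nmol/L doxorubicin, whereas the growth protocol has 1.5 µg/ml DOX. The genotype tags name the sgcon libraries as the knockout and the sgGPR91 libraries as the control, against the titles. The titles were followed, and each direction below is that of the libraries labelled sgGPR91 against the libraries labelled sgcon and would turn around with the tags. The labels do not say whether the edited cells were 1 clone or a pool, nor that replicates were separate cultures, so the p-values rest on a spread between libraries that may be technical.

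A heterotrimeric G protein consists of an alpha subunit, which binds GTP when a receptor is active, and a beta-gamma pair. The alpha classes differ in what they act on: Gs stimulates adenylyl cyclase, Gi/o inhibits it, Gq activates phospholipase C beta, and G12/13 acts on guanine nucleotide exchange factors of RhoA. RGS proteins speed GTP hydrolysis on alpha subunits and so end the signal, while GRKs phosphorylate active receptors, which arrestins then bind. In sympathetic neurons and their tumours these proteins serve receptors for noradrenaline, acetylcholine and neuropeptides.

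Library totals ran from 7070189 to 10252425 reads. SUCNR1, the targeted gene (chromosome 3, 151873643 to 151884619), had 1, 0 and 2 reads in the sgcon libraries and 1, 0 and 0 in the sgGPR91 libraries, so it could not show which label is right (two-sided exact permutation p = 0.7, where 0.1 is the smallest possible). Of 12 adrenergic neuroblastoma markers, none was under 1 CPM (reads over the TMM-scaled library total) in all libraries, and their summed level was 7043 to 7903 CPM in sgcon and 5101 to 5541 CPM in sgGPR91. The markers of the labelled cell type were thus present in both groups, at a lower sum in sgGPR91, although CHGB rose (adjusted p = 0.000623) and PHOX2A did not pass (adjusted p = 0.688). MYCN, the most abundant of them, went from 2769 to 1690 CPM and so weighs most in that sum. The remaining adrenergic markers were each called lower as well. The sum of 10 mesenchymal neuroblastoma markers was higher in sgGPR91, at 1497 to 1544 CPM against 1328 to 1392. Its genes were mixed: CD44 rose from 92.7 to 196.6 CPM, and SNAI2 and YAP1 also rose. FN1 and IL6ST fell (edgeR adjusted p = 0.00413 and 0.0114), and PRRX1, VIM, NOTCH2, FOSL1 and TGFBR2 did not pass. The sum of 7 endothelial markers was 5.69 to 7.83 CPM in sgGPR91 against 0.559 to 1.80 in sgcon, mostly from EMCN. PECAM1, CDH5, VWF, KDR and TEK were under 1 CPM in all libraries. Whether these marker levels had a part in any difference below was not tested. Of 8 markers listed for leukocytes, CD3E, MS4A1 and LYZ had no read in any library, nor had HBB, a red cell gene on that list.

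Enough reads for a test were found for 51 members. The other 23 reached at most 14 reads in a library, and 6 of them, GNAT3, GNGT1, GNG14, RGS7, RGS18 and RGS21, had none at all. Of the 51, edgeR's quasi-likelihood test called 13 higher and 14 lower at an adjusted p under 0.05, which is 52.9%, beside 41.1% of all 12701 genes tested. The background was 20.2% for higher and 21.0% for lower, and the counts called in each class below are to be read beside it. The median log2 fold change was 0.04 over the members and -0.01 over all genes tested, so the members as a whole leaned in neither direction. Groups did not overlap in CPM for 30 of the 51 members (58.8%), beside 50.9% of all genes. A called difference of at least 2-fold was seen for 5 members, GNG11, GNG7, GNG5, RGS20 and RGS13, beside 7.00% of all genes.

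Levels are compared between genes in deposited FPKM, which divide each gene's reads by its listed length and by the library total. By mean FPKM, RGS5 and RGS4 led all other members, at ranks 12 and 49 among all genes. Both encode small RGS proteins that act on Gi/o and Gq alpha subunits, and they lie side by side on chromosome 1 (RGS4 at 163068775 to 163076802, RGS5 at 163111121 to 163321791). Together they made up 91.6 to 94.2% of the summed FPKM of the 21 RGS genes. GNAS, which encodes the Gs alpha subunit, and the beta subunit genes GNB1 and GNB2 followed at ranks 226, 228 and 292.

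**Figure D1:**
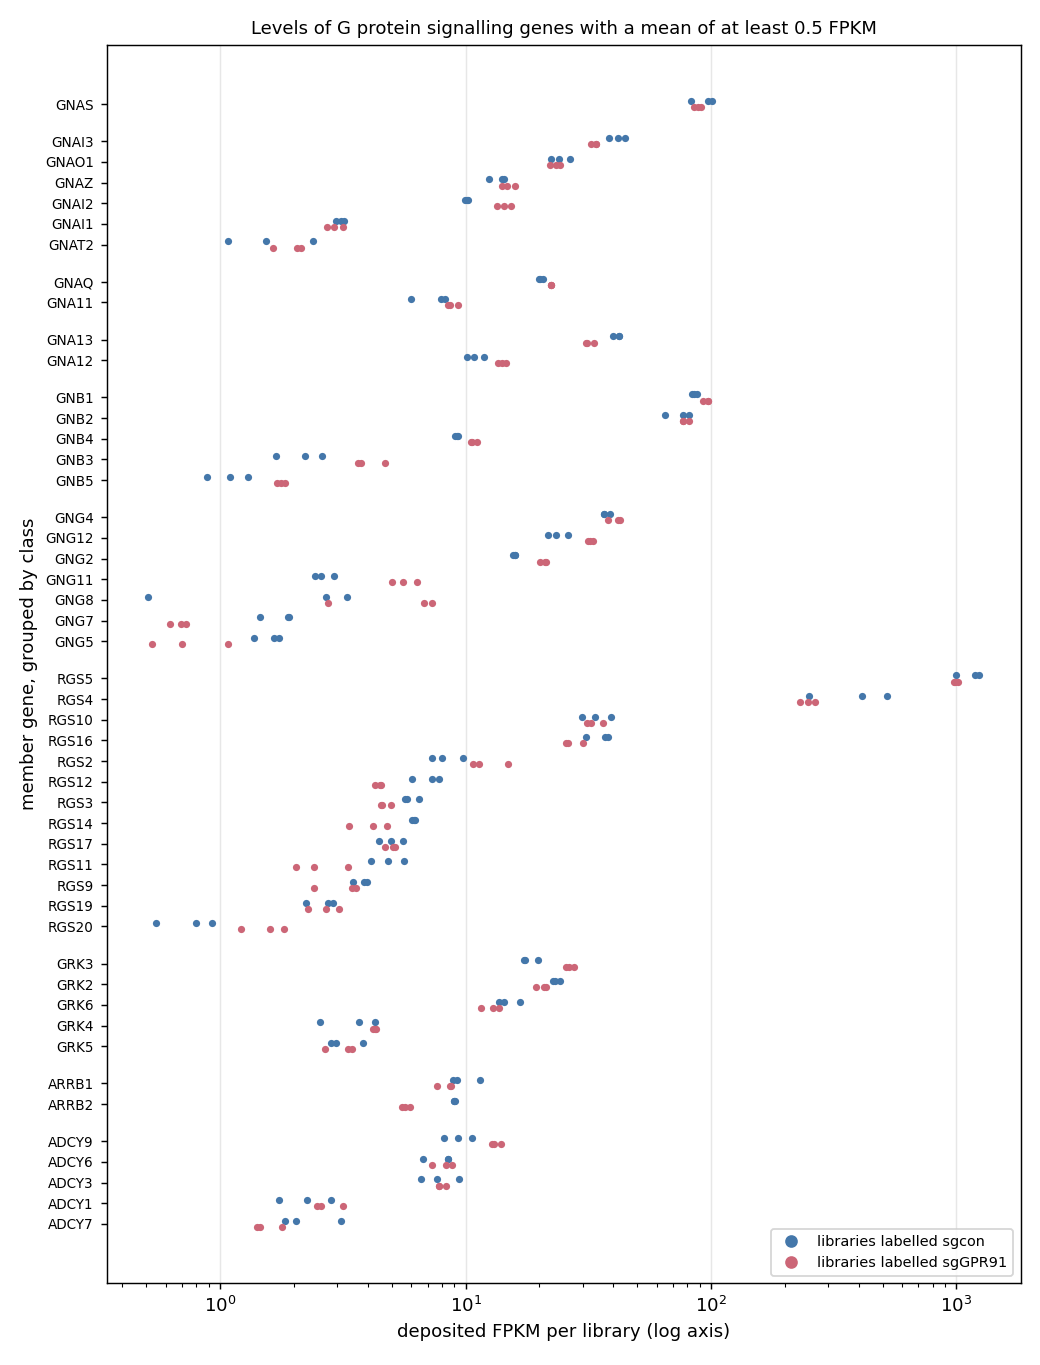
Deposited FPKM of each member in each library on a log axis, for members with a mean of at least 0.5 FPKM and a value above 0 in every library (RGS13, at 0 in 1 sgcon library, is not drawn). RGS5 and RGS4 lie to the right of every other member, and most classes are led by 1 or 2 genes.

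The stretches of 250 bases before the RefSeq gene starts (GRCh38.p14) are shown for the 2 most abundant RGS genes and for 3 members with at least a 2-fold difference. Capitals mark matches to GGGCGG (GC box) or TGACGTCA (the cAMP response element, CRE), on either strand. They are written 5′ to 3′ on the strand of the gene.
RGS5 chr1:163321736-163321985, minus strand: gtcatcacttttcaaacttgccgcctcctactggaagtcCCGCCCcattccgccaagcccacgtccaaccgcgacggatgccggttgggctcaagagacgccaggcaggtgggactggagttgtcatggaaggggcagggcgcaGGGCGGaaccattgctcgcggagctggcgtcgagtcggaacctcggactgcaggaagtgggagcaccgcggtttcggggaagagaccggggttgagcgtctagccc
RGS4 chr1:163068621-163068870, plus strand: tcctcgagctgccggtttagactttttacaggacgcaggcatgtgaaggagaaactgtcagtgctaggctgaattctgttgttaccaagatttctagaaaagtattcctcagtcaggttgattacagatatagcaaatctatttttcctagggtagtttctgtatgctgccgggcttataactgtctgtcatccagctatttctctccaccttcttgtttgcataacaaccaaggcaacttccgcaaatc
RGS13 chr1:192635897-192636146, plus strand: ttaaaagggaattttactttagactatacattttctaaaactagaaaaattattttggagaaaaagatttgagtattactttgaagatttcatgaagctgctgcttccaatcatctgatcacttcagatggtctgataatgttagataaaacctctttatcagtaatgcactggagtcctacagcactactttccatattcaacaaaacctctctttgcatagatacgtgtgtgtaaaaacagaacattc
GNG11 chr7:93921485-93921734, plus strand: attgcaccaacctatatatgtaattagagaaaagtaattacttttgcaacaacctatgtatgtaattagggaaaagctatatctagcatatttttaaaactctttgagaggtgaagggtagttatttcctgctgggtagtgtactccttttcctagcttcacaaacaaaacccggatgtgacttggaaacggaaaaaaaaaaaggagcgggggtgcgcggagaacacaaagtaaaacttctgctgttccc
GNG7 chr19:2702695-2702944, minus strand: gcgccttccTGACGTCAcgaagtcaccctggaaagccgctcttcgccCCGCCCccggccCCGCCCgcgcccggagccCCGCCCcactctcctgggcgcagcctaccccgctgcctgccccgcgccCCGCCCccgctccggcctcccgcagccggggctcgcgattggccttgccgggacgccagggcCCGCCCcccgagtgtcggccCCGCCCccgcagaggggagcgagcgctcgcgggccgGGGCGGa
The window of RGS13 was 32.0% G and C with 1 CpG, that of GNG11 38.4% with 5, that of RGS4 42.8% with 5, that of RGS5 64.4% with 22 and that of GNG7 81.2% with 36. The GNG7 window held a CRE 241 bases before the start and 7 GC boxes. Promoter windows were matched by symbol for 61 of the 74 members. A CRE was in 2 of the 61 (3.28%), namely GNAO1 and GNG7, beside 1.77% of all 27305 promoters. A GC box was in 32 members (52.5%, beside 42.3%). An E-box, searched as CACGTG on both strands, was in 4 members (6.56%, beside 6.49%). The AP-1 letters TGANTCA were in 3 members (4.92%, beside 6.60%). The TATA letters TATAAA, also on both strands, were in 3 members (4.92%, beside 11.1%). A match is a description of these letters and not a binding site.

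Among the Gs genes, GNAS (chromosome 20, 58839718 to 58911192) measured 97.2, 101.0 and 83.1 FPKM in the sgcon libraries and 90.7, 88.4 and 85.3 in sgGPR91. The groups overlapped, with the sgcon 3 value lowest of all 6 (log2 fold change -0.10 ± 0.09 (SE), adjusted p = 0.406). Without sgcon replicate 3 the log2 fold change was -0.19 and edgeR's adjusted p 0.0111. GNAL, the olfactory and striatal Gs-type alpha subunit, had at most 10 reads in a library and was not tested.

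In the Gi/o class, through which adenylyl cyclase is inhibited, 1 member was called in each direction. Of 6 tested members GNAI2 rose and GNAI3 fell, and GNAO1, GNAZ, GNAI1 and GNAT2 did not pass. GNAI2 (chromosome 3, 50226292 to 50259362) was at 10.3, 10.2 and 9.97 FPKM in sgcon and 15.4, 13.4 and 14.4 in sgGPR91. All of its sgGPR91 values lay above all sgcon values (log2 fold change 0.50 ± 0.08 (SE), adjusted p = 8.016e-05). GNAI3 (chromosome 1, 109548615 to 109600195) was at 44.8, 41.8 and 38.4 FPKM in sgcon and 32.6, 33.9 and 33.9 in sgGPR91. It was lower in each sgGPR91 library (log2 fold change -0.33 ± 0.08 (SE), adjusted p = 0.00243). The ratio of GNAI2 to GNAI3 FPKM went from 0.244 ± 0.0151 (SD, n = 3) to 0.431 ± 0.0381 (SD, n = 3). It had to separate the groups, since the genes themselves did so in opposite directions. The summed FPKM of the 8 Gi/o genes was 94.6 ± 2.04 and 90.9 ± 0.632 (SD, n = 3 each), lower in every sgGPR91 library. GNAO1, the main alpha subunit of neurons, measured 24.3 ± 2.23 and 23.2 ± 1.14 FPKM, with groups that overlapped. GNAT2, the cone transducin gene, has all 1381 of its annotated exon bases opposite exons of GNAI3 and AMPD2, so its 19 to 31 reads a library cannot be assigned without strand. GNAI3 itself shares 803 exon bases with other genes on its own strand, among them AMPD2.

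GNAI3 leads the Gi/o class only per deposited length. Per kilobase of the median coding transcript in GENCODE version 29, GNAO1 came first in that class, ADCY1 among the cyclases, GNG2 among the gamma genes and GRK2 among the GRKs. GENCODE lists 1 coding transcript length of 27174 bases for GNAI3, against a deposited 9044. On that scale, chosen after the data had been seen, the log2 ratio of the summed Gi/o level was 0.03 in place of -0.06. RGS5, RGS4, GNAS, GNA13, GNAQ, GNB1 and ARRB1 led their classes, or in the case of RGS4 came next, on both scales. Between classes the order of GNAS and RGS4 changed. Mean FPKM was 90.9 for GNAS and 321.5 for RGS4, whereas the transcript scale put GNAS at 1025 and RGS4 at 859.8.

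Neither tested Gq gene passed, although both were higher in each sgGPR91 library. GNAQ measured 20.2, 20.6 and 19.8 FPKM in sgcon and 22.2, 22.4 and 22.2 in sgGPR91 (log2 fold change 0.13 ± 0.06 (SE), adjusted p = 0.119). GNA11 measured 7.41 ± 1.23 and 8.79 ± 0.469 FPKM (SD, n = 3 each; adjusted p = 0.0763), and passed without sgcon replicate 3 (adjusted p = 0.0254). GNA15, the Gq-class subunit of blood cells, had 5, 1 and 2 reads in sgcon and none in sgGPR91. That count was too low for the test, and its read ratio had a 95% lower bound of 1.66 for counting error only. GNA15 was not alone among untested members. The same interval, for sgGPR91 over sgcon, was 1.33 to 5.68 for GNG8 and 0.0704 to 0.935 for GNAT1. For GNAL and ADCY4 it included 1.

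G12 and G13, the 2 alpha subunits that act on RhoA, went in opposite directions. GNA13 (chromosome 17, 65009289 to 65056740) was at 42.2, 42.1 and 39.7 FPKM in sgcon and 31.0, 33.4 and 31.3 in sgGPR91. GNA12 (chromosome 7, 2728105 to 2844308) was at 10.1, 10.8 and 11.9 FPKM in sgcon and 14.1, 13.6 and 14.7 in sgGPR91. Both were without overlap between groups, with log2 fold changes of -0.38 ± 0.07 (SE) for GNA13 (adjusted p = 0.000312) and 0.36 ± 0.08 (SE) for GNA12 (adjusted p = 0.00124). The ratio of GNA12 to GNA13 went from 0.265 ± 0.0305 to 0.443 ± 0.0316 (SD, n = 3). The summed level of the pair was 52.2 ± 0.623 and 46.0 ± 0.978 FPKM.

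The beta subunit genes that passed all rose. The abundant GNB1 and GNB2 did not pass, at 85.5 ± 1.84 and 95.7 ± 2.46 FPKM for GNB1 (adjusted p = 0.0874) and 74.4 ± 8.54 and 78.4 ± 2.39 FPKM for GNB2 (adjusted p = 0.597). GNB1 was nevertheless higher in every sgGPR91 library, and its adjusted p in limma on log2(FPKM + 1) was 0.0392. GNB3, a subunit best known from cones, was at 1.70, 2.21 and 2.59 FPKM in sgcon and 3.74, 4.68 and 3.66 in sgGPR91. GNB5, the atypical subunit that pairs with the R7 RGS proteins RGS6, RGS7, RGS9 and RGS11, was at 0.882, 1.10 and 1.29 FPKM in sgcon and 1.77, 1.70 and 1.83 in sgGPR91. Groups did not overlap for either, and the log2 fold changes were 0.89 ± 0.18 (SE; adjusted p = 0.000921) and 0.70 ± 0.14 (SE; adjusted p = 0.000666). GNB4 rose less, 1.16-fold (adjusted p = 0.0215), a call that ended without sgGPR91 replicate 3 (adjusted p = 0.102) or sgcon replicate 2 (adjusted p = 0.0501). Exon bases of these called genes lie partly opposite other genes, 549 in GNB3 (opposite CDCA3), 1230 in GNB5 and 1941 in GNB4.

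Of the R7 partners of GNB5, RGS11 fell and RGS9 did not pass. RGS11 (chromosome 16, 268301 to 275980) was at 4.12, 4.82 and 5.60 FPKM in sgcon and 2.04, 3.30 and 2.42 in sgGPR91, lower in every library (log2 fold change -0.91 ± 0.16 (SE), adjusted p = 0.000351). Of the RGS11 exon bases, 1073 lie opposite other genes, ARHGDIG and FAM234A among them. RGS9 was at 3.77 ± 0.247 and 3.15 ± 0.643 FPKM (adjusted p = 0.12). RGS6 had 1 read in all 6 libraries and RGS7 none.

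Gamma subunits anchor the beta-gamma pair in the membrane, and their summed level differed by a log2 ratio of 0.33, from 85.6 ± 1.73 to 107.3 ± 3.32 FPKM (SD, n = 3) without overlap. That sum includes the untested GNG8, at 2.16 ± 1.46 and 5.61 ± 2.49 FPKM (SD, n = 3) from 12 reads in sgcon and 31 in sgGPR91. Of 13 genes 6 were tested, of which 3 rose and 2 fell. GNG2 was at 15.9, 15.9 and 15.6 FPKM in sgcon and 21.2, 21.1 and 20.2 in sgGPR91. GNG12 was at 26.2, 23.4 and 21.7 FPKM in sgcon and 31.5, 32.2 and 33.0 in sgGPR91. These abundant genes rose 1.31-fold (adjusted p = 0.000238) and 1.34-fold (adjusted p = 0.00041), and GNG4, the most abundant by FPKM, was at 37.4 ± 1.34 and 40.8 ± 2.41 (adjusted p = 0.203).

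GNG11, which encodes a farnesylated gamma subunit (chromosome 7, 93921735 to 93928610), was at 2.91, 2.58 and 2.44 FPKM in sgcon and 6.34, 5.58 and 5.03 in sgGPR91. It was higher in each sgGPR91 library by 2.11-fold (log2 fold change 1.08 ± 0.16 (SE), adjusted p = 5.363e-05). GNG7 (chromosome 19, 2511219 to 2702694), the gamma subunit of striatal Golf signalling, went the other way. It was at 1.45, 1.91 and 1.90 FPKM in sgcon and 0.694, 0.724 and 0.626 in sgGPR91, which is 2.58-fold lower (log2 fold change -1.37 ± 0.23 (SE), adjusted p = 0.000167).

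GNG5 and GNG10 had few reads. GNG5 had 17, 20 and 11 reads in sgcon and 7, 10 and 5 in sgGPR91, without overlap, and was called at the edge of the threshold (log2 fold change -1.07 ± 0.41 (SE), adjusted p = 0.0493). That call ended in 7 of 13 other settings, among them DESeq2 (adjusted p = 0.131) and the runs without sgGPR91 replicate 1, sgGPR91 replicate 3, sgcon replicate 1 or sgcon replicate 2 (adjusted p = 0.131, 0.18, 0.0986 and 0.137). GENCODE names 4 pseudogenes after GNG5, and GNG10 shares 1090 exon bases with the readthrough gene DNAJC25-GNG10, so the split of reads for both is uncertain. GNG8 had 12 reads in sgcon and 31 in sgGPR91 over a listed length of 216 bases and was not tested.

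**Figure D2:**
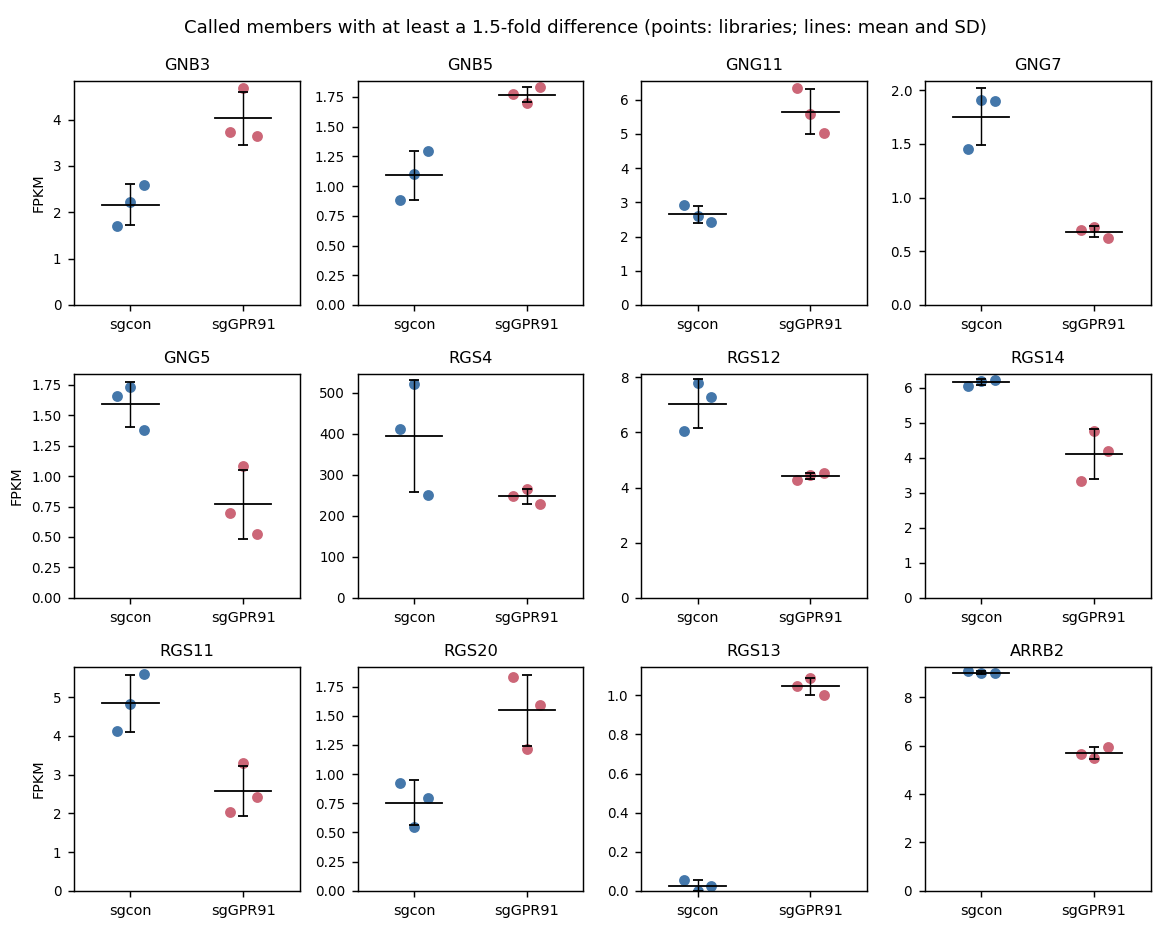
Deposited FPKM in each library (points) with mean and SD (lines) for the 12 called members with at least a 1.5-fold difference. RGS4 is the only one of the 12 whose groups overlap, since sgcon replicate 3 lies at 251.2 FPKM, below the highest sgGPR91 value of 266.0.

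Of 15 RGS genes tested, 6 were called lower and 3 higher, with a median log2 fold change of -0.21, beside backgrounds of 21.0% lower and 20.2% higher over all genes. Without sgcon replicate 2 the calls of RGS4, RGS2 and RGS20 ended. RGS4 had 411.0, 522.2 and 251.2 FPKM in sgcon and 248.9, 266.0 and 229.5 in sgGPR91. Its sgcon libraries spread over a 2-fold range and the third lay among the sgGPR91 libraries. RGS4 was called lower (log2 fold change -0.69 ± 0.18 (SE), adjusted p = 0.00564), and was the only called member with overlapping groups. Without sgcon replicate 2 the log2 fold change was -0.43 and the call ended (adjusted p = 0.0593), and without sgcon replicate 3 it was -0.94 (adjusted p = 1.272e-08). DESeq2 did not call it (adjusted p = 0.0651).

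RGS5 was at 1186, 1236 and 997.0 FPKM in sgcon and 975.4, 1012 and 987.7 in sgGPR91. The third sgcon library was again beside the sgGPR91 libraries, and RGS5 did not pass (log2 fold change -0.21 ± 0.10 (SE), adjusted p = 0.107). It passed without sgcon replicate 3 (adjusted p = 0.000155) and in DESeq2 (adjusted p = 0.0413). RGS5 is also known from pericytes, which surround small vessels. A list of 7 fibroblast and mural markers summed to 874.1 to 956.5 CPM in sgcon and 839.5 to 847.5 in sgGPR91, with PDGFRB, also a pericyte gene, at 315.8 ± 17.4 and 252.8 ± 16.1 CPM (adjusted p = 0.00211). LUM was at 380.3 and 404.2 CPM, COL1A1 at 94.9 and 71.2, DCN at 84.1 and 80.2, COL3A1 at 30.6 and 26.4, PDGFRA at 5.03 and 7.85, and COL1A2 at 0.362 and 0.656. The part of such markers in the RGS5 level was not tested.

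RGS13, an RGS gene of germinal centre B cells and mast cells (chromosome 1, 192636138 to 192660311), was close to silent in sgcon, with 3, 0 and 1 reads, and had 55, 53 and 50 reads in sgGPR91. The groups were far apart, with a read ratio of 40.6 (95% exact interval 15.5 to 150.8, for counting error only) and an adjusted p of 4.569e-07. The fitted log2 fold change of 5.21 was 6.42 without sgcon replicate 1 and 4.56 without sgcon replicate 2. Its level stayed low at 1.05, 1.09 and 1.00 FPKM. The leukocyte markers CD79A and MS4A1, which mark B cells, were at under 1 CPM in all libraries, with no MS4A1 read at all. The 8 markers of the leukocyte list, the red cell gene HBB included, summed to 0.791 to 2.57 CPM in sgcon and 2.01 to 3.41 in sgGPR91. CD14, a monocyte gene, went from 0.536 ± 0.317 to 1.79 ± 0.414 CPM (adjusted p = 0.00936). The part of such cells in the RGS13 reads was not tested. RGS2, its neighbour on chromosome 1 (192809039 to 192812275) and a regulator of Gq, was at 9.74, 7.29 and 7.99 FPKM in sgcon and 14.9, 10.7 and 11.4 in sgGPR91. RGS2 was thus higher in all sgGPR91 libraries (log2 fold change 0.56 ± 0.15 (SE), adjusted p = 0.0077). Its call ended without sgGPR91 replicate 1 (adjusted p = 0.0685) or sgcon replicate 2 (adjusted p = 0.0524). RGS1, RGS18 and RGS21, which belong to the same cluster, had 1 read in all 6 libraries between them. RGS20, a regulator of Gz, rose 2.05-fold from 0.756 ± 0.192 to 1.55 ± 0.308 FPKM, a call that ended without sgGPR91 replicate 1 (adjusted p = 0.0568) or sgcon replicate 2 (adjusted p = 0.0575).

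The other RGS genes called lower were RGS12, RGS14, RGS3 and RGS16. RGS12 (chromosome 4, 3293028 to 3439913), a scaffold with RAS-binding domains, was at 6.07, 7.80 and 7.28 FPKM in sgcon and 4.29, 4.46 and 4.52 in sgGPR91 (log2 fold change -0.68 ± 0.09 (SE), adjusted p = 1.601e-05). RGS14, which also has RAS-binding domains, was at 6.05, 6.19 and 6.22 FPKM in sgcon and 3.34, 4.77 and 4.19 in sgGPR91 (log2 fold change -0.60 ± 0.14 (SE), adjusted p = 0.00217). RGS3 fell 1.28-fold and RGS16, a small RGS protein gene, 1.30-fold. Groups did not overlap for any of these 4. RGS10, RGS17 and RGS19 did not pass, with log2 fold changes of -0.06, -0.01 and 0.02. RGS8 did not pass either, with 22 reads in sgcon and 30 in sgGPR91 (log2 fold change 0.49 ± 0.48 (SE), adjusted p = 0.442).

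Among the receptor kinases, GRK3 rose and GRK2, the close relative that also binds beta-gamma, fell. GRK3 was at 17.5, 17.3 and 19.8 FPKM in sgcon and 25.6, 27.6 and 26.3 in sgGPR91. GRK2 was at 22.7, 24.3 and 23.1 FPKM in sgcon and 19.4, 20.8 and 21.3 in sgGPR91. Neither overlapped. The ratio of GRK3 to GRK2 FPKM was under 1 in every sgcon library, at 0.779 ± 0.0731 (SD, n = 3). It was above 1 in every sgGPR91 library, at 1.29 ± 0.0516 (SD, n = 3). Where the ratio lies beside 1 depends on the gene lengths used. Per kilobase of the median coding transcript, the mean over all libraries was 35.3 for GRK3 and 58.8 for GRK2. The log2 fold change was 0.54 ± 0.07 (SE) for GRK3 (adjusted p = 1.205e-05) and -0.20 ± 0.07 (SE) for GRK2 (adjusted p = 0.0279). The GRK2 call ended when sgcon replicate 2 or any 1 of the sgGPR91 libraries was left out (adjusted p from 0.058 to 0.124). GRK4, GRK5 and GRK6 did not pass, and GRK6 was at 14.9 ± 1.53 and 12.8 ± 1.07 FPKM (adjusted p = 0.0548). GRK6 passed without sgcon replicate 1 (adjusted p = 0.0288) and GRK4 without sgcon replicate 3 (adjusted p = 0.0293).

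Both arrestin genes were lower, and their summed level went from 18.9 ± 1.38 to 14.0 ± 0.810 FPKM (SD, n = 3). ARRB2 (chromosome 17, 4710596 to 4721499), which encodes beta-arrestin 2, was at 9.07, 8.99 and 8.99 FPKM in sgcon and 5.65, 5.49 and 5.95 in sgGPR91. Its fall was 1.59-fold (log2 fold change -0.67 ± 0.10 (SE), adjusted p = 3.825e-05). ARRB1 was at 9.89 ± 1.41 and 8.32 ± 0.608 FPKM (log2 fold change -0.25, adjusted p = 0.0362), and its call ended in 8 of 13 other settings, DESeq2 included (adjusted p = 0.0513). Among those were the runs without sgcon replicate 3, where its log2 fold change was -0.15 (adjusted p = 0.136), and without any 1 of the sgGPR91 libraries (adjusted p from 0.0522 to 0.182).

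Of the adenylyl cyclases, which make cyclic AMP, 7 of 10 were tested and 1 passed in each direction. ADCY9 (chromosome 16, 3953387 to 4116442), the most abundant by FPKM, was at 8.20, 9.31 and 10.6 FPKM in sgcon and 13.1, 12.8 and 14.0 in sgGPR91 (log2 fold change 0.50 ± 0.08 (SE), adjusted p = 0.000122). ADCY7 was at 1.84, 2.04 and 3.09 FPKM in sgcon and 1.42, 1.45 and 1.78 in sgGPR91, with the highest value in sgcon replicate 3 (log2 fold change -0.58 ± 0.18 (SE), adjusted p = 0.015). Without that library its log2 fold change was -0.35 (adjusted p = 0.0676), and the call also ended without sgGPR91 replicate 1 or 2 (adjusted p = 0.0645 and 0.0654). In all, the ADCY7 call ended in 6 of 13 other settings, every limma run included (adjusted p from 0.0606 to 0.116). Of the ADCY7 exon bases, 3593 lie opposite BRD7. ADCY1, ADCY3, ADCY5, ADCY6 and ADCY10 did not pass, and ADCY3 and ADCY6 differed by 1.01-fold and 1.03-fold. ADCY1 passed without sgcon replicate 3 (adjusted p = 0.0101).

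**Figure D3:**
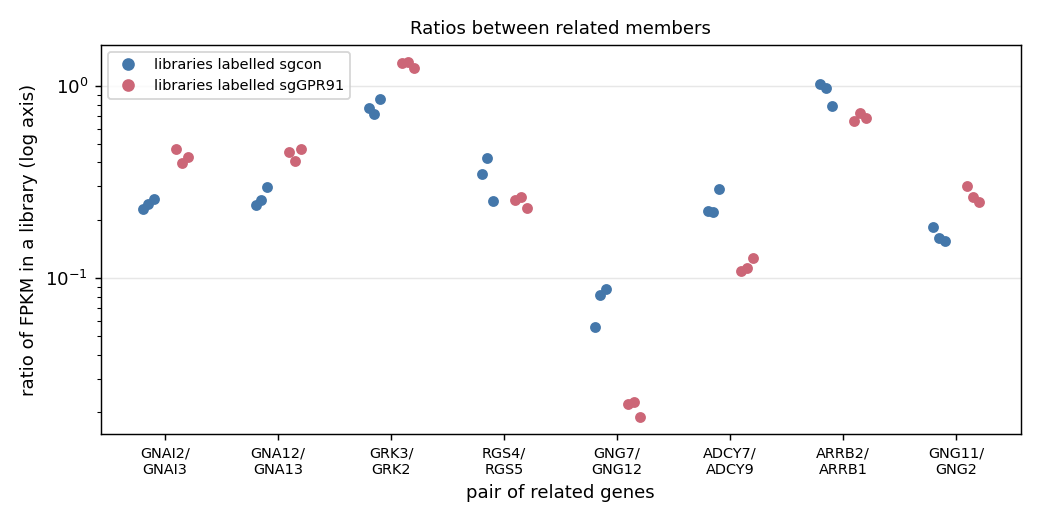
Ratio of deposited FPKM between 2 related members in each library, on a log axis, for 8 pairs chosen after their values had been seen. The groups do not overlap for 7 pairs and overlap for RGS4 to RGS5. In GNAI2 to GNAI3, GNA12 to GNA13, GRK3 to GRK2, GNG7 to GNG12 and ADCY7 to ADCY9, the genes themselves separated in opposite directions. The ratios of those pairs therefore had to separate and add no further result. With deposited lengths the GRK3 to GRK2 ratio crosses 1, a position that depends on the lengths used.

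Each member was also set beside the other tested genes within 5 Mb on its chromosome. Of the 27 called members 13 had the sign of their neighbours' median. That median was beyond 0.2 (log2, either sign) for 5 tested members, GNAQ, GNA13, RGS9, RGS10 and GRK5. GNA13 and RGS9 lie next to each other on chromosome 17, where the 53 neighbours of GNA13 had a median of -0.30 beside its own -0.38, and RGS9 had -0.28. RGS10 and GRK5 on chromosome 10 were at -0.06 and -0.05, while their neighbours had medians of -0.27 and -0.23. The part of position in these values was not tested. The members with a called 2-fold difference had neighbour medians between -0.18 (GNG7) and 0.11 (GNG5). For RGS13 that median was -0.14 over 11 genes, and 0.07 over 48 genes within 10 Mb.

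**Figure D4:**
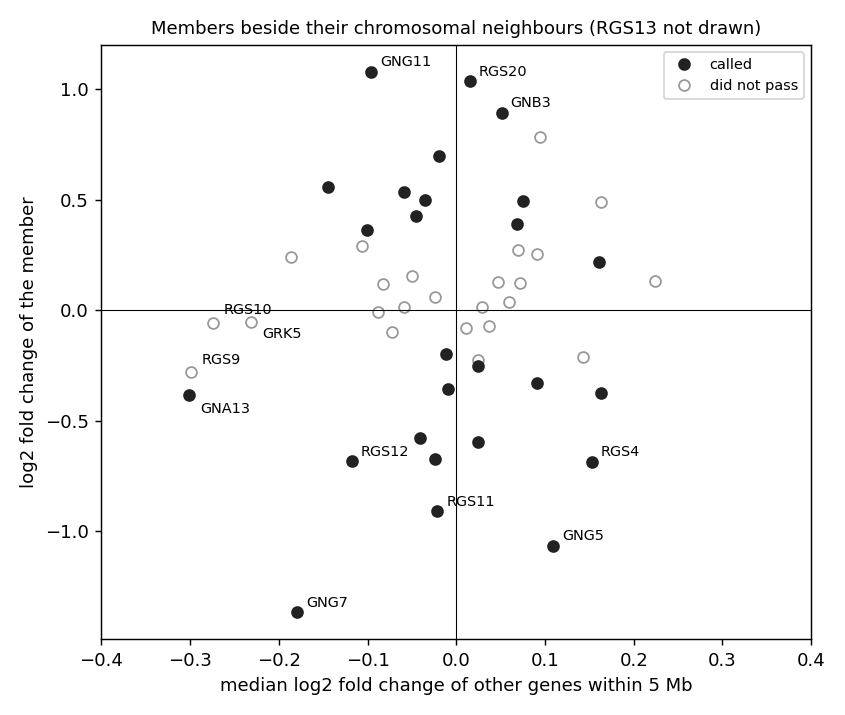
Log2 fold change of each tested member against the median log2 fold change of the other tested genes within 5 Mb; filled points passed the test. Neighbour medians stay between -0.30 and 0.22, while members reach from -1.37 (GNG7) to 1.08 (GNG11), with RGS13 at 5.21 not drawn.

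Genes that act beside the members were followed in 10 lists, and are given in CPM. The share called in each list is to be read beside 41.1% of all genes tested, with 20.2% higher and 21.0% lower. The lists share some genes, so their counts are not separate. PLCB3 is in both the Gq and the beta-gamma list, and AKAP13 in both the protein kinase A and the RhoA list. Of 24 adaptors and chaperones tested, 8 rose and 6 fell (58.3% called, median log2 fold change 0.02). The largest difference was in NUCB2, a calcium-binding nucleobindin that can bind Gi alpha subunits, from 43.9 ± 3.82 to 108.7 ± 2.03 CPM (adjusted p = 4.621e-09). NUCB1 rose 1.53-fold, GPR158 1.52-fold, and SNX25 fell 1.45-fold. SNX25 lay among neighbours with a median of -0.41, and the GPR158 call (adjusted p = 0.0496) ended in 9 of 13 settings, and when any 1 library other than sgcon replicate 1 was left out.

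Of 30 genes of the cyclic AMP and protein kinase A pathway, 9 rose and 6 fell (50.0% called, median 0.08). PRKACB, a catalytic subunit of protein kinase A, rose 1.94-fold from 159.6 ± 15.5 to 310.5 ± 6.92 CPM (adjusted p = 7.742e-08). AKAP1, which anchors the kinase at mitochondria, fell 1.60-fold, POPDC2 1.45-fold and RAPGEF2 1.36-fold. Neighbour medians were -0.35 for AKAP1 and -0.46 for RAPGEF2. Among 11 phosphodiesterases, which degrade cyclic nucleotides, 3 rose and 2 fell (45.5% called). PDE4B rose from 3.37 ± 1.44 to 11.98 ± 1.85 CPM and PDE4D 1.44-fold, while PDE4A fell from 4.45 ± 1.64 to 1.02 ± 0.558 CPM and PDE2A 1.54-fold.

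Genes listed as responsive to cyclic AMP through CREB had 18 of 20 called, 6 higher and 12 lower, with a median of -0.68. Among the 6 higher were PDE4B, PDE4D and PDE10A, which the phosphodiesterase list above also counted as higher. Some of these genes were known from earlier results of these data when the list was written, so the count is no independent evidence of a direction. SST, the somatostatin gene, had 39 reads in sgcon and none in sgGPR91, at least 12.6-fold lower against a floor of 3 reads over the group. The neuropeptide gene NPY went the other way, with 3, 9 and 1 reads in sgcon and 75, 50 and 74 in sgGPR91 (log2 fold change 3.94, adjusted p = 1.024e-06). Without sgcon replicate 2 that log2 fold change was 4.89. FOS and EGR1, which many other signals also induce, fell 11.7-fold and 8.01-fold. Their sgcon libraries spread widely, at 16.7, 5.54 and 12.9 CPM for FOS and 36.9, 11.3 and 32.2 CPM for EGR1. The sgGPR91 means were 0.974 ± 0.218 and 3.32 ± 1.64 CPM (SD, n = 3 each), without overlap.

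Downstream of Gq, 6 of 27 genes rose and 8 fell (51.9% called, median -0.01). In limma on log2(FPKM + 1) with no filter, 3 rather than 8 were lower. DGKK, DGKG and RASGRP1, which terminate or respond to diacylglycerol, rose 4.33-fold, 2.39-fold and 2.20-fold, and ITPR2, an IP3 receptor, fell 1.76-fold. Of 17 G12/13 and RhoA effector genes, 3 rose and 5 fell (47.1% called, median -0.14), with RHOC up 1.76-fold and CIT and RHOB down 1.35-fold and 1.30-fold. Of 11 beta-gamma effector genes, 3 rose and 4 fell (63.6% called, median 0.15). KCNJ3, a potassium channel opened by beta-gamma, rose from 17 to 74 reads (log2 fold change 2.14, and 2.79 without sgcon replicate 1) and PLCB3 fell 1.38-fold. CACNA1A and CACNA1B, calcium channels that beta-gamma inhibits, differed 2.06-fold upward and 1.46-fold downward, calls that ended in 9 and 7 of 13 settings. The CACNA1A call ended without any 1 library other than sgcon replicate 3 (adjusted p from 0.0569 to 0.198), and the CACNA1B call without sgGPR91 replicate 2 or 3 or sgcon replicate 2 or 3 (adjusted p from 0.0559 to 0.0725). In both the RhoA and the beta-gamma list 1 gene rather than 3 was called higher without sgGPR91 replicate 2, sgGPR91 replicate 3 or sgcon replicate 2, and 2 beta-gamma genes rather than 4 were lower without sgGPR91 replicate 2.

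Receptors were followed by the alpha class they couple to. Of 15 Gi/o-coupled receptors tested, 2 rose and 4 fell (40.0% called, median 0.02). The number higher was 4, 5 and 7 without sgcon replicate 1, 2 and 3, and the number lower was 2 without sgcon replicate 2 or sgGPR91 replicate 2. CHRM2, a muscarinic receptor, was the most abundant of those named and fell from 121.2 ± 2.77 to 62.95 ± 6.60 CPM (adjusted p = 1.906e-07). GALR1 had 0, 2 and 6 reads in sgcon and 15, 22 and 16 in sgGPR91, with a log2 fold change of 2.70 that was 4.14 without sgcon replicate 3. CXCR4 fell from 60 reads to 12, and NPY2R was at 118 and 71 reads, a call that ended in 7 of 13 settings (adjusted p from 0.0539 to 0.144) and without any 1 library other than sgGPR91 replicate 1, with a neighbour median of -0.55. Of 14 Gs-coupled receptors, 3 rose and 4 fell (50.0% called, median 0.07), and 2 rather than 4 were lower without sgGPR91 replicate 1 or 2. The serotonin receptors HTR4 and HTR7 rose from 38 to 238 reads and from 17 to 117. MC1R rose 2.27-fold and VIPR2 was 2.17-fold lower, with the MC1R call ending without sgGPR91 replicate 2 or 3 (adjusted p = 0.0571 and 0.063) and the VIPR2 call without any 1 of the 6 libraries (adjusted p from 0.0568 to 0.14), and exons of both overlap other genes. Of 15 Gq-coupled receptors, 3 rose and 6 fell (60.0% called, median -0.30). AGTR1, the angiotensin receptor, fell from 159 to 17 reads, EDNRB from 198 to 11 and TBXA2R from 57 to 19, while PTGFR rose from 35 to 106. The log2 fold change of EDNRB was -4.06, and -4.87 without sgGPR91 replicate 1. The TBXA2R call ended without sgGPR91 replicate 2 (adjusted p = 0.0639).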

How the data were processed

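The authors deposited 1 table with read counts per gene and FPKM, per the file headers; HISAT2, Bowtie2 and RSEM are listed in the submitters' processing notes without roles, with a genome build not given in the sources used here. Deposited FPKM equalled counts over listed length and column total for 90322 values (largest relative difference 1.7e-14). All 74 member identifiers were in GENCODE version 29, 23 with the same start and end, and coordinates are printed as deposited. Counts were tested with edgeR 4.0.16 in R 4.3.3 (filterByExpr with minimum count 10 and minimum total 15, TMM, quasi-likelihood, Benjamini-Hochberg over 12701 genes, threshold 0.05), a procedure tested on simulated data. SE is the absolute log2 fold change over the root of F. A floor of 3 reads is 0.416 CPM in the shallowest library. Alternatives were DESeq2 1.42.0 and limma 3.58.1 on log2(FPKM + 1) or log2(FPKM + 0.1), RLE scaling, no filter, a replicate block and each library left out. Whether counting used strand is not stated, so overlapping genes cannot be separated. Members and lists were chosen with earlier results of these data known. Named were all called members, the leading gene of each class, and up to 4 called genes a list by fold change, of which 1 is not reported here.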

Additional observations from a re-analysis of the deposited data

How the results depend on the processing

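Over 13 other settings (DESeq2, RLE scaling, no filter, 3 limma runs on FPKM, a replicate block and each library left out), members called higher ranged from 10 to 16 and members called lower from 10 to 14, against 13 and 14. Of the 27 called members, 19 passed in all of them and 8 (ADCY7, ARRB1, GNB4, GNG5, GRK2, RGS2, RGS20 and RGS4) lost the call in at least 1, and none changed sign. Of 40 partner genes chosen by the naming rule, 33 passed in all and none changed sign. With the replicate number as a block, 15 members were called higher and 14 lower, since GNG5 lost its call (adjusted p = 0.0613) and ADCY1, GNA11 and GRK6 gained one (adjusted p = 0.0306, 0.0297 and 0.0275). The labels tie no batch to the numbers, and deviations of same-numbered libraries correlated at 0.159, 0.0192 and 0.0962. Each sgcon library correlated best with its own number, whereas sgGPR91 replicate 2 did so with sgcon replicate 3 (0.0599). The log2 ratio of summed Gi/o FPKM moved from -0.06 to 0.032 in an alternative chosen after seeing the data, with GENCODE transcript lengths, where GNAI3 counts as 27174 bases long. The library sgcon replicate 3 was the shallowest, and leaving it out gave the most members called higher, 16. The 23 members with too few reads for the test give no answer at this depth.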
